A study of Mus musculus with 12 samples.

Results

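Alveolar epithelial cells of mice 1 day after lipopolysaccharide (LPS) were compared directly with those of mice 2 weeks after bleomycin. The 6 libraries compared are the 3 of each of these groups, out of 12 libraries in 4 groups, and they were chosen by treatment and time alone. All C57BL/6 mice were 8 to 10 weeks old. LPS, a component of the outer membrane of Gram-negative bacteria, was given at 2 mg/kg and bleomycin, a drug that breaks DNA, at 1.5 U/kg, both into the trachea. Lungs were digested and red cells lysed. Cells carrying CD16/32, CD45, CD31, CD90, Ter119 or PDGFRα were then depleted with beads, and EpCAM-positive cells were kept, so all groups went through the same negative and positive selection. The 3 saline libraries are given as a baseline and entered no test. The treatments differ in agent and in time, so what belongs to the agent and what to the interval cannot be told apart. The labels do not state that libraries of a group came from separate mice, so the p-values measure only the spread between libraries, and that spread may be technical.

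LPS is bound by CD14 and the TLR4 receptor complex, which activates NF-kB (a transcription factor of inflammatory genes) and a type I interferon response, and neutrophils enter the airspace within hours. Bleomycin injury passes through inflammation to a phase in which activated fibroblasts deposit collagen and other matrix. In the alveolus, type 2 cells make surfactant and give rise to the flat type 1 cells across which gas is exchanged. A pool of sorted cells measured in bulk gives 1 level for all cells in it, so that fewer cells of a type and less RNA per cell cannot be told apart.

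Expression was deposited as FPKM, a fragment count adjusted for transcript length and library size. The joined tables held 13640 protein-coding genes. Summed FPKM was 329711 to 404198 in the LPS libraries and 289042 to 302204 in the 2-week libraries, and the median gene stood at 4.57 to 5.78 FPKM against 6.08 to 6.68. Pearson's correlation of log2(FPKM + 1) across genes was 0.950 to 0.977 within LPS, 0.981 to 0.988 within the 2-week group and 0.881 to 0.938 between them. The LPS libraries thus spread more, and library 1 had the lowest summed FPKM of the 3. Epcam, the gene of the protein used to keep cells, stood at 25.9, 23.004 and 20.7 FPKM after LPS and 22.9, 29.9 and 30.4 FPKM at 2 weeks. These ranges overlapped (log2 difference -0.24 ± 0.18, limma adjusted p = 0.317), and the sign turned to 0.077 under median-ratio scaling. Ptprc, which encodes the CD45 protein used to deplete leukocytes, stood at 12.6, 7.35 and 9.34 FPKM after LPS and 8.02, 8.85 and 6.11 FPKM at 2 weeks, also overlapping (0.30 ± 0.23, adjusted p = 0.319). Ptprc was called higher after LPS under median-ratio scaling (0.59, adjusted p = 0.0495), and its sign turned to -0.013 under equal totals. Sequencing depth is unknown, so no counting error can be attached to any value.

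A difference is the mean of log2(FPKM + 1) after LPS minus that at 2 weeks, and a gene was called at a limma adjusted p under 0.05 over all 13640 genes. By this rule 4565 genes, or 33.5% of those tested, differed. Higher after LPS were 1318 genes (9.66%) and higher at 2 weeks were 3247 (23.8%). The libraries of the groups did not overlap for 7125 genes (52.2%). Called genes that differed by at least 1 log2 unit numbered 644 higher after LPS and 1044 higher at 2 weeks. The median gene differed by -0.25, so the typical gene read lower after LPS. The direction of the majority depended on scaling. Higher after LPS were 28.87% of the calls as deposited, 11.43% when all libraries were set to equal summed FPKM, 54.01% after median-ratio scaling and 47.42% after quantile normalization. These scalings placed the median gene at -0.50, -0.02 and -0.01. The number of calls also depended on single libraries. It was 6962 without LPS library 1, 2115 without LPS library 3, and 2661, 2455 and 2367 without bleomycin library 1, 2 or 3.

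**Figure D1:**
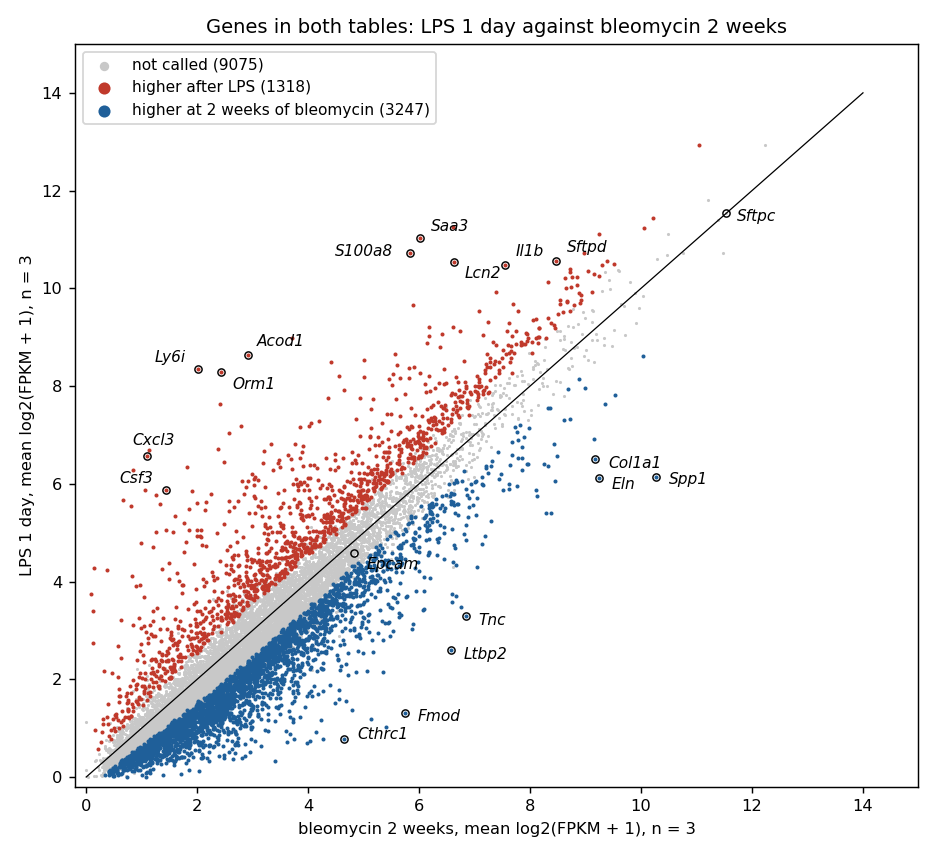
Each point is 1 of 13640 genes, placed by its mean log2(FPKM + 1) in 3 libraries 2 weeks after bleomycin (horizontal) and 1 day after LPS (vertical); the line marks equality. Ly6i, Acod1, Orm1 and Cxcl3 lie far above the line, Fmod, Cthrc1, Ltbp2 and Spp1 far below it, and Sftpc lies on it.

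Among genes in both tables, the 12 largest differences toward LPS included acute phase and chemokine genes. Ly6i, a member of the Ly6 family of small membrane-anchored proteins (chromosome 15, 74979534 to 74983430), stood at 229, 367 and 400.2 FPKM after LPS and 3.70, 3.32 and 2.27 FPKM at 2 weeks. It was near its saline level of 3.77 ± 1.04 FPKM (SD, n = 3) at 2 weeks and 107 times higher after LPS (log2 difference 6.32 ± 0.24, SE, limma adjusted p = 7.79e-07). Acod1, whose enzyme makes itaconate in activated macrophages, stood at 345, 373 and 495 FPKM after LPS and 8.76, 6.15 and 5.12 FPKM at 2 weeks (5.73 ± 0.22, adjusted p = 7.79e-07). Fpr2, a receptor for formylated bacterial peptides, differed by 5.23 ± 0.23 and Gpr84, a receptor for medium-chain fatty acids on myeloid cells, by 4.74 ± 0.21. The other genes among the 12 largest were Orm1, Orm2, Saa1, Saa3, Cxcl3, Retnlg, S100a8 and Il1f9, described below with their groups. Ly6, Saa and Orm genes have near-identical neighbours that may share reads, so the level of any single copy is uncertain.

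Among genes in both tables, the 12 largest differences toward 2 weeks of bleomycin included genes of extracellular matrix proteins. Fmod encodes fibromodulin, a proteoglycan that binds collagen fibrils (chromosome 1, 134037254 to 134048277). It stood at 2.01, 1.50 and 1.01 FPKM after LPS and 49.9, 58.5 and 50.1 FPKM at 2 weeks, with saline at 8.85, 10.1 and 8.32 FPKM. LPS libraries were below saline and 2-week libraries above it, and the direct difference was -4.44 ± 0.20 (limma adjusted p = 1.49e-06). Cilp, a matrix protein first known from cartilage, stood at 1.69, 1.01 and 0.549 FPKM after LPS and 39.97, 44.99 and 38.9 FPKM at 2 weeks (-4.38 ± 0.22, adjusted p = 3.41e-06). Also among the 12 were Spp1, Ltbp2, Cthrc1, Tnc and Thbs2, treated with the matrix genes below, as well as Col28a1 at -3.48, the adhesion molecule gene Nrcam at -3.42, the macrophage gene Fcrls at -3.28 and Nrep at -3.26. Pcdhga2 (-3.93) shares exons with other protocadherin genes of its cluster, and its 2-week libraries ranged from 13.1 to 56.5 FPKM.

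**Figure D2:**
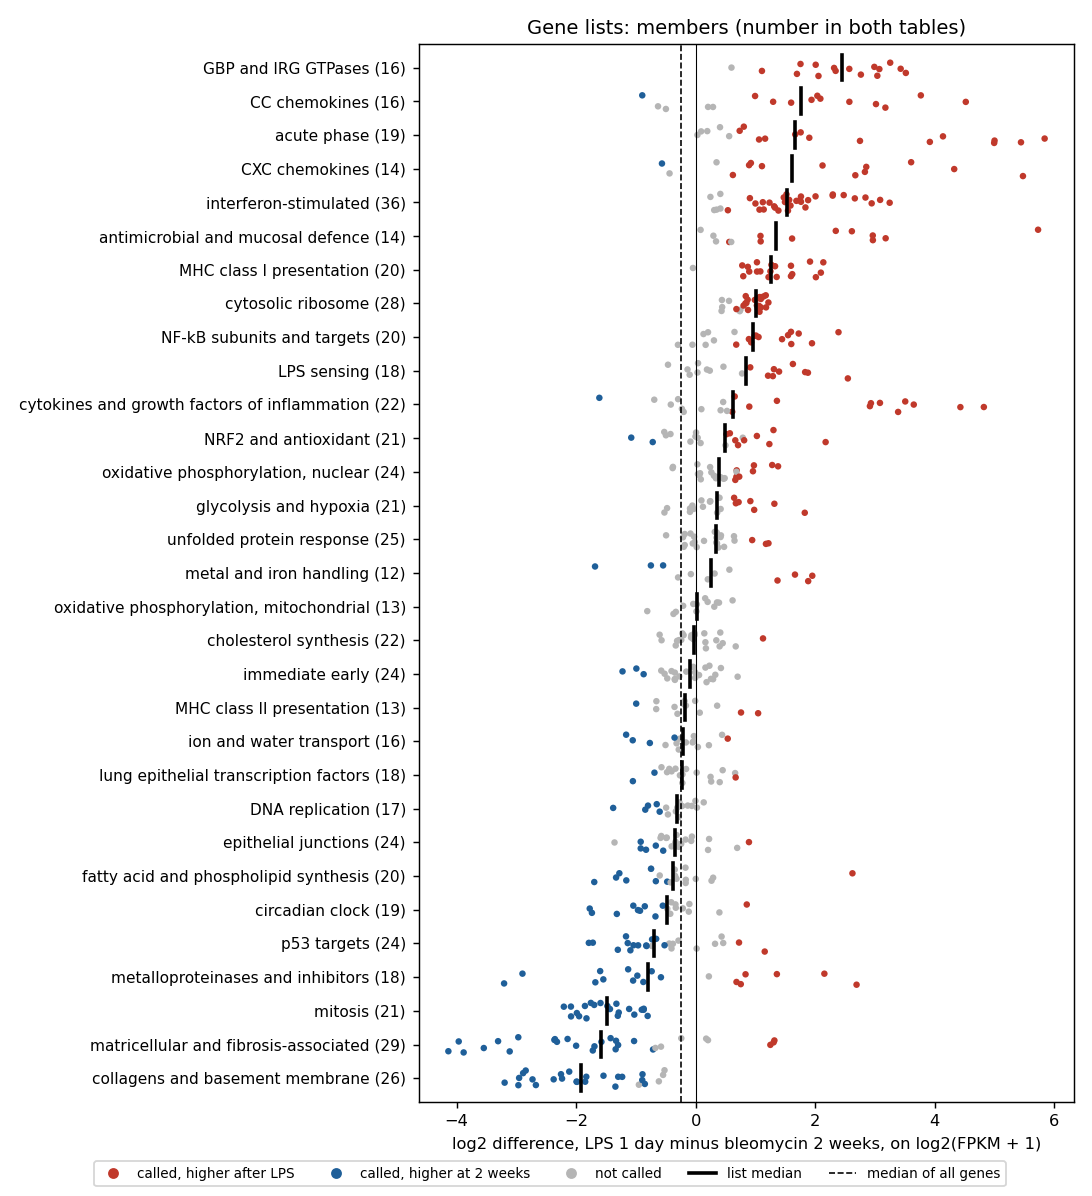
Each point is a gene of 1 of 31 lists, placed by its log2 difference between LPS and bleomycin, with the number of genes in both tables in brackets; bars mark list medians and the dashed line the median of all genes at -0.25. The list medians run from -1.92 for collagens to 2.46 for the interferon-induced GTPases.

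Acute phase genes, whose products are plasma and mucosal proteins of early inflammation, were higher after LPS. Of 19 members, 14 were called higher after LPS and 0 higher at 2 weeks, with a median difference of 1.67 against -0.25 for all genes. Saa3, an inducible serum amyloid A gene (chromosome 7, 46711998 to 46715700), stood at 1149, 3055 and 2548 FPKM after LPS and 71.4, 58.6 and 62.6 FPKM at 2 weeks. Its saline libraries held 2.71, 3.90 and 3.04 FPKM, so both injuries were above baseline and LPS was 35.05 times the 2-week level (4.998 ± 0.34, limma adjusted p = 1.61e-05). Orm1, which encodes a plasma glycoprotein, stood at 219, 396 and 342 FPKM after LPS and 3.28, 6.83 and 3.72 FPKM at 2 weeks (5.84 ± 0.28, adjusted p = 2.41e-06). Saa1 differed by 5.45 ± 0.20 and Orm2 by 5.004 ± 0.27. Lcn2, whose protein withholds iron from bacteria by binding their siderophores, stood at 1035, 1920.5 and 1678 FPKM after LPS and 90.01, 98.3 and 105 FPKM at 2 weeks. Saline averaged 72.2 ± 16.9 FPKM for Lcn2, and the difference between LPS and 2 weeks was 3.92 ± 0.27 (adjusted p = 1.59e-05).

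Antimicrobial and mucosal defence genes followed the same direction, with 10 of 14 called higher after LPS, 0 higher at 2 weeks and a median of 1.35. Slpi, a secreted inhibitor of neutrophil elastase, stood at 208, 354 and 337 FPKM after LPS and 27.4, 39.8 and 28.1 FPKM at 2 weeks (3.18 ± 0.25, limma adjusted p = 3.29e-05). Pigr, the receptor that carries IgA across epithelium, stood at 85.5, 77.7 and 92.3 FPKM after LPS and 11.01, 9.91 and 9.14 FPKM at 2 weeks (2.97 ± 0.17, adjusted p = 5.57e-06). Saline averaged 29.7 ± 3.46 FPKM for Slpi and 10.8 ± 2.60 FPKM for Pigr, so the 2-week libraries of both stood near baseline. Reg3g, a bactericidal lectin gene, differed by 2.35 ± 0.17, and Pglyrp1, a peptidoglycan-binding protein that neutrophils store, by 2.97 ± 0.27. Lyz2, the lysozyme gene of macrophages and type 2 cells, stood at 2912, 4117 and 3849.6 FPKM after LPS and 3021, 2056 and 2152 FPKM at 2 weeks and was not called (adjusted p = 0.185), except without LPS library 1 (0.75, adjusted p = 0.0223).

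Chemokine genes were mostly higher after LPS. Of 14 CXC chemokine genes 11 were higher after LPS and 1 was higher at 2 weeks (median 1.62). Cxcl3, a ligand of the neutrophil receptor CXCR2 (chromosome 5, 90786103 to 90789600), stood at 98.2, 77.8 and 110.3 FPKM after LPS and 0.977, 1.53 and 0.957 FPKM at 2 weeks. No LPS library came near a 2-week library, and the ratio of means was 82.6 (5.48 ± 0.20, limma adjusted p = 7.67e-07). Cxcl2, which acts on the same receptor, stood at 487, 396 and 734 FPKM after LPS and 79.9, 72.5 and 62.2 FPKM at 2 weeks (2.86 ± 0.25, adjusted p = 6.04e-05). Cxcl5, made largely by epithelium, stood at 93.6, 20.1 and 57.2 FPKM after LPS and 3.12, 3.53 and 2.45 FPKM at 2 weeks (3.61 ± 0.44, adjusted p = 0.000366). The interferon-induced Cxcl9, which draws T cells, stood at 86.1, 58.6 and 217 FPKM after LPS and 8.31, 3.84 and 2.09 FPKM at 2 weeks, with library 3 the highest of the LPS group. Cxcl10 had the same highest library, at 308, 192 and 688 FPKM after LPS and 55.7, 39.3 and 48.7 FPKM at 2 weeks. Their differences were 4.33 ± 0.48 (adjusted p = 0.000215) and 2.83 ± 0.39 (adjusted p = 0.000726). Cxcl14, a chemokine of resting epithelium and stroma, was the single member higher at 2 weeks (-0.56 ± 0.19, adjusted p = 0.0464). Its adjusted p was 0.437 under median-ratio scaling, 0.0996 with the replicate block and 0.111 to 0.197 when LPS library 3 or any bleomycin library was left out.

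Of 16 CC chemokine genes 11 were higher after LPS and 1 higher at 2 weeks (median 1.77). Ccl20, which draws dendritic cells and lymphocytes through CCR6, stood at 61.1, 31.5 and 80.5 FPKM after LPS and 1.52, 1.64 and 1.03 FPKM at 2 weeks (4.52 ± 0.31, limma adjusted p = 1.61e-05). Ccl3, a chemokine that activated macrophages make, stood at 619, 861 and 979 FPKM after LPS and 61.2, 60.997 and 52.5 FPKM at 2 weeks (3.77 ± 0.22, adjusted p = 7.43e-06). Ccl4 differed by 3.02 ± 0.25 and Ccl12, a mouse monocyte chemokine, by 3.18 ± 0.38. Ccl21a, which guides T cells through CCR7, was higher at 2 weeks, at 60.5, 118 and 68.7 FPKM after LPS and 148, 138 and 157 FPKM at 2 weeks (-0.89 ± 0.25, adjusted p = 0.0229). Its adjusted p was 0.188 under median-ratio scaling, 0.107 when LPS library 3 was left out and 0.0578 to 0.074 when a bleomycin library was, and Ccl21 has further copies in the mouse that may share its reads.

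Cytokine genes of the interleukin-1 and colony-stimulating families were among the higher genes after LPS. The list of 22 held 12 genes higher after LPS and 1 higher at 2 weeks. Il1f9, the older symbol of the gene for interleukin-36 gamma, stood at 54.4, 84.2 and 42.2 FPKM after LPS and 1.25, 1.11 and 0.887 FPKM at 2 weeks. Its saline libraries held 1.93, 1.67 and 2.31 FPKM, above every 2-week library (4.82 ± 0.25, limma adjusted p = 3.41e-06). Csf3, whose product G-CSF raises neutrophil output and survival, stood at 54.7, 64.6 and 54.5 FPKM after LPS and 2.22, 1.21 and 1.83 FPKM at 2 weeks (4.43 ± 0.20, adjusted p = 1.49e-06). Il1b stood at 1110.3, 1507 and 1746 FPKM after LPS and 208, 196 and 158 FPKM at 2 weeks (2.93 ± 0.25, adjusted p = 5.41e-05). Il1a differed by 3.65 ± 0.21 and Il23a, a subunit of interleukin-23, by 3.51 ± 0.20. Il6 was not called. Its LPS libraries held 125, 46.4 and 137 FPKM and its 2-week libraries 63.2, 64.9 and 73.7. LPS library 2 lay below all of the latter, while libraries 1 and 3 lay above (0.46 ± 0.35, adjusted p = 0.323). Without LPS library 2 the difference was 0.95 (adjusted p = 0.00343). Il11, a cytokine known to act on fibroblasts, was the member higher at 2 weeks, at 1.26, 1.36 and 0.949 FPKM after LPS and 4.21, 6.73 and 6.38 FPKM at 2 weeks with saline at 1.17 ± 0.169 FPKM (-1.61 ± 0.20, adjusted p = 0.000453). Cd274, which encodes the T cell inhibitory ligand PD-L1, stood at 98.9, 72.3 and 120.2 FPKM after LPS and 12.6, 13.1 and 9.18 FPKM at 2 weeks (2.94 ± 0.23, adjusted p = 3.06e-05).

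Genes of LPS detection were higher after LPS for 9 of 18, with 0 higher at 2 weeks and a median of 0.85. Cd14, the LPS co-receptor (chromosome 18, 36725074 to 36726736), stood at 751, 1179 and 1040.3 FPKM after LPS and 195, 159 and 146 FPKM at 2 weeks (2.55 ± 0.25, limma adjusted p = 0.000104). Nlrp3, the sensor of an inflammasome, differed by 1.88 ± 0.24, and Irak3, an inhibitor of the receptor pathway, by 1.83 ± 0.20. Tlr4 itself stood at 8.36, 4.83 and 6.26 FPKM after LPS and 0.556, 5.70 and 0.287 FPKM at 2 weeks. The 2-week libraries of Tlr4 disagreed, library 2 lying within the LPS range and the others under 1 FPKM, and its call (adjusted p = 0.0377) was lost without LPS library 1, 2 or 3 or bleomycin library 1 or 3 (0.0507 to 0.142). Of 20 NF-kB subunits and targets 13 were higher after LPS and 0 higher at 2 weeks (median 0.96). Nfkbia, the inhibitor that NF-kB induces against itself, stood at 895, 1557 and 1518 FPKM after LPS and 490.4, 347 and 443 FPKM at 2 weeks (1.60 ± 0.29, adjusted p = 0.0034). Its 2-week libraries all lay below the saline mean of 505 FPKM. Sod2, the mitochondrial superoxide dismutase, differed by 2.39 ± 0.18, Tnip1, which restrains NF-kB with A20, by 1.95 ± 0.17, and the adaptor gene Traf1 by 1.73 ± 0.25.

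Interferon-stimulated genes were higher after LPS. Of 36 members, 31 were called higher after LPS and 0 higher at 2 weeks, with a median of 1.53. The lowest count under any leave-one-out fit was 24, without LPS library 3. Rsad2, which encodes the antiviral enzyme viperin (chromosome 12, 26442753 to 26456452), stood at 49.6, 56.1 and 101 FPKM after LPS and 6.38, 6.40 and 5.26 FPKM at 2 weeks (3.25 ± 0.26, limma adjusted p = 3.31e-05). Isg15, a ubiquitin-like modifier, stood at 286, 355 and 627 FPKM after LPS and 45.5, 50.6 and 42.6 FPKM at 2 weeks (3.09 ± 0.28, adjusted p = 6.52e-05). In both genes LPS library 3 was the highest, and the 2-week libraries lay close together. Zbp1, a sensor of Z-form nucleic acids, differed by 2.95 ± 0.24 and Oasl1 by 2.84 ± 0.47.

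The GBP and IRG GTPases, which interferon gamma induces and which attack vacuoles of intracellular microbes, had the highest median of the 31 pathway lists. Of 16 members 15 were higher after LPS and 0 higher at 2 weeks (median 2.46). Gbp2 (chromosome 3, 142620602 to 142638008) stood at 359.8, 232 and 592 FPKM after LPS and 41.6, 27.1 and 26.6 FPKM at 2 weeks, and its saline libraries held 40.7, 27.2 and 24.6 FPKM. The 2-week libraries of Gbp2 overlapped the baseline, while every LPS library was above both (3.52 ± 0.32, limma adjusted p = 7.81e-05). Gbp5 differed by 3.43 ± 0.37, Tgtp1 by 3.26 ± 0.29 and Igtp by 3.08 ± 0.24. LPS library 2 was the lowest LPS library for each of these 4 genes. GBP and IRG genes lie in clusters of similar copies, so reads may be shared among them. Class I antigen presentation genes were also higher after LPS, 19 of 20 with 0 higher at 2 weeks (median 1.26). Psme2, a subunit of the interferon-induced proteasome activator, stood at 154, 224 and 272 FPKM after LPS and 43.1, 53.4 and 45.4 FPKM at 2 weeks (2.14 ± 0.23, adjusted p = 0.000177). The immunoproteasome genes Psmb10 and Psmb8 differed by 2.10 ± 0.25 and 2.01 ± 0.25, and the peptide transporter gene Tap1 by 1.91 ± 0.23. Class II genes did not move as a group, with 2 of 13 (15.4%) higher after LPS, 1 (7.7%) higher at 2 weeks and a median of -0.19. The shares of all genes were 9.66% and 23.8%. Under equal totals and under quantile normalization 6 class II genes were higher at 2 weeks. Cd80, a costimulatory ligand, differed by 1.05 ± 0.18 and H2-Ob, a class II modulator of B cells, by -0.996 ± 0.22.

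The promoters of 8 genes from the interferon, GTPase and CXC chemokine lists are printed to show the known response elements they hold. They were chosen among called members that hold the element in the printed stretch, those with the largest differences first. That each is called and holds the element is therefore set by the choice. All 8 were higher after LPS, Ifit3 with a difference of 2.48 ± 0.18 and Cxcl1 with 1.11 ± 0.27 (limma adjusted p = 2.49e-05 and 0.0127). The sequences are the 150 bases before the transcription start in RefSeq (GRCm38.p6, the assembly that mm10 names), written 5′ to 3′ on the gene's strand, with the matched letters in capitals. The first 5 hold the interferon-stimulated response element, searched as GAAA, then NN, then GAAA, on both strands, and the last 3 a kappa B site, the element that NF-kB binds, searched as GGANTTTCC on both strands.
Rsad2 (chr12:26456453-26456602, minus strand): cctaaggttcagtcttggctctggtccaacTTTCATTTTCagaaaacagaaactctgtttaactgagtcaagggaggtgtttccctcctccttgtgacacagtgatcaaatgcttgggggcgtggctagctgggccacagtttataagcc
Isg15 (chr4:156200819-156200968, minus strand): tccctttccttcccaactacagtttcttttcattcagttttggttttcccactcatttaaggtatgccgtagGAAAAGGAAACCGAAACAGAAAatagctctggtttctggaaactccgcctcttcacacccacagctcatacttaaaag
Ifit3 (chr19:34583379-34583528, plus strand): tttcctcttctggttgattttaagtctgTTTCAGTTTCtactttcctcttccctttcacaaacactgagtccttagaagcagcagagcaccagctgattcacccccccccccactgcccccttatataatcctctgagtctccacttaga
Gbp2 (chr3:142620513-142620662, plus strand): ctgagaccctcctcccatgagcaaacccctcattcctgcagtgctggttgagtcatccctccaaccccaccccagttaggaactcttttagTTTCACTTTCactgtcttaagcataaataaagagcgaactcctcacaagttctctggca
Tgtp1 (chr11:48992247-48992396, minus strand): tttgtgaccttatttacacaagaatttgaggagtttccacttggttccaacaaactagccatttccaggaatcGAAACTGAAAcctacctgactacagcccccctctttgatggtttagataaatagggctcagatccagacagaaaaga
Cxcl3 (chr5:90785951-90786100, plus strand): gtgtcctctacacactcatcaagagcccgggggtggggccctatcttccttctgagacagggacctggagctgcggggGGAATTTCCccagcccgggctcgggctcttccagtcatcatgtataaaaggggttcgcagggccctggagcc
Cxcl2 (chr5:90903749-90903898, plus strand): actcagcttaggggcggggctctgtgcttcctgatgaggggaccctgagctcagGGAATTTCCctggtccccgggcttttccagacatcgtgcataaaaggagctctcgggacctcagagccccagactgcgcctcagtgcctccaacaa
Cxcl1 (chr5:90891095-90891244, plus strand): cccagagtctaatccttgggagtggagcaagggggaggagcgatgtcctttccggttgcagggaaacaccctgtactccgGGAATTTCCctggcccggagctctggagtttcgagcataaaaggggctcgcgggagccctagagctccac

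Isg15 held 3 overlapping matches, and the other promoters printed held 1 each of the element shown. The printed stretches of Isg15 and Tgtp1 also hold the kappa B letters, left in lower case. In the 250 bases before the start, the interferon element was found in 12 of 27 interferon-stimulated genes with a promoter in the RefSeq table (44.4%) and in 9 of 10 GBP and IRG genes (90.0%), against 3.46% of 27025 genes. The kappa B letters were found in 4 of 11 CXC chemokine genes (36.4%) and in 6 of 17 NF-kB genes (35.3%) against 1.25% of all, and in 0 of 14 acute phase and 0 of 11 CC chemokine genes. The elements did not divide cleanly by list. The kappa B letters were also in 2 of 10 GBP and IRG genes (20%) and 1 of 27 interferon-stimulated genes (3.7%). The interferon element was in 2 of 11 CXC chemokine genes (18.2%). No match of the kappa B letters in a listed gene overlapped a match of the interferon letters. A match describes letters in this window and no binding. The RefSeq start lies inside the gene as the deposited tables place it for 4 of the 8 genes. By the deposited coordinates 61 of the 150 printed bases of Gbp2, 150 of Tgtp1, 28 of Cxcl2 and 4 of Cxcl1 lie inside the gene, and with them the matches of Gbp2 and Tgtp1.

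**Figure D3:**
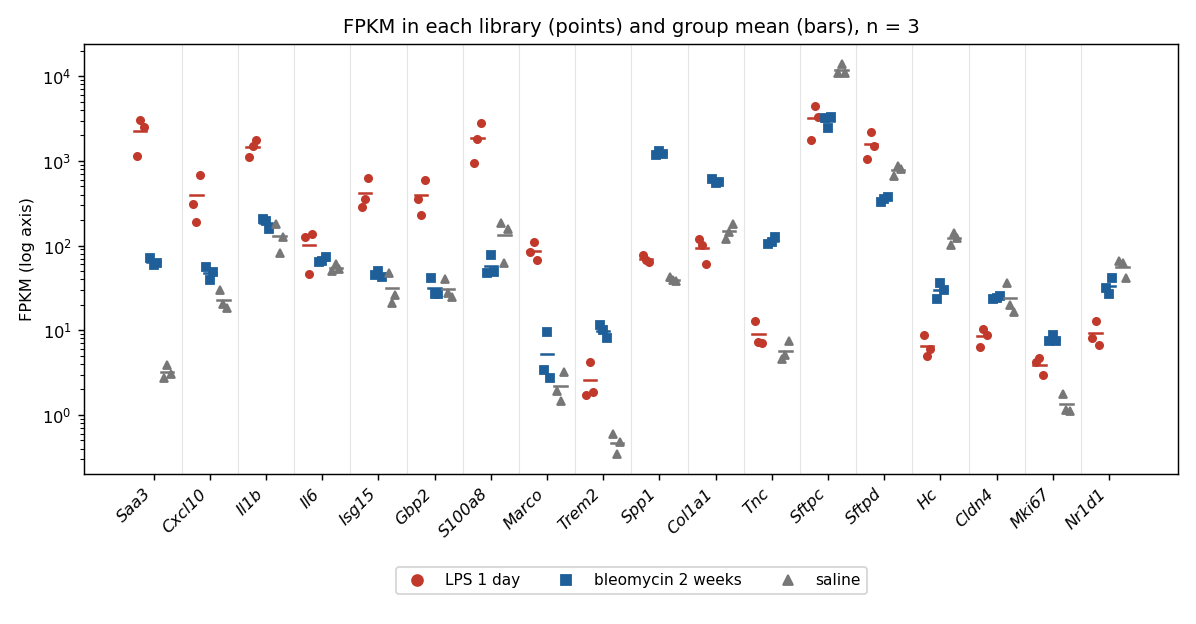
FPKM (log axis) of 18 genes in each library, with bars at the group means of 3 libraries each; circles are LPS 1 day, squares bleomycin 2 weeks and triangles saline. S100a8, Gbp2 and Isg15 stand far above the squares after LPS, Spp1, Tnc and Col1a1 far below them, and the LPS and 2-week points of Sftpc and Il6 overlap.

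Transcripts of leukocytes remained in these sorted cells and differed between the injuries. Neutrophil markers were higher after LPS for 20 of 21, with 0 higher at 2 weeks and a median of 2.88. Their summed level was 3352 to 8565 FPKM after LPS, 279.8 to 418 at 2 weeks and 434 to 920.1 in saline. S100a8, one partner of a calcium-binding pair abundant in neutrophils (chromosome 3, 90668978 to 90670035), stood at 946, 1819.9 and 2814 FPKM after LPS and 47.5, 77.6 and 48.8 FPKM at 2 weeks. LPS library 1 was the lowest of its group and still above the highest 2-week library (4.88 ± 0.38, limma adjusted p = 3.06e-05). Its partner S100a9 differed by 4.63 ± 0.39, Retnlg by 5.29 ± 0.35 and Stfa2l1 by 4.54 ± 0.43. Stefin A genes are near-identical copies and their single levels are uncertain. Ly6g, the antigen by which mouse neutrophils are sorted, stood at 4.47, 17.96 and 10.4 FPKM after LPS and 0, 0.138 and 0.15 FPKM at 2 weeks. The acute phase, antimicrobial, chemokine, cytokine, LPS sensing, NF-kB, interferon-stimulated, GTPase and class I lists shared the direction between the groups with these neutrophil markers. The part of neutrophils in those results was not tested. In LPS libraries 1 to 3 the neutrophil sum was 3352, 6635 and 8565 FPKM. The CC chemokine (2433, 2977 and 3999) and cytokine sums (2248, 2492 and 3020) rose in the same order. So did the NF-kB, interferon-stimulated and class I sums. The CXC chemokine (2235, 1764 and 3011) and acute phase sums (6514, 10286 and 8518) did not. Nor did the antimicrobial, LPS sensing and GTPase sums. Red cell globin genes were also higher after LPS, 4 of 4, with a summed level of 132 to 306 FPKM against 38.2 to 72.8 at 2 weeks and 69.4 to 271 in saline. Of 9 platelet markers 3 were higher after LPS and 0 higher at 2 weeks, led by Pf4 at 2.12 ± 0.20. Ppbp (0.62 ± 0.21) lost its call (adjusted p = 0.0425) under equal totals, with the replicate block (0.0804), without LPS library 1 or 3 and without any bleomycin library.

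Macrophage markers did not move one way. In the monocyte and interstitial macrophage list 12 of 25 (48%) were higher after LPS and 6 (24%) higher at 2 weeks. The shares of all genes were 9.66% and 23.8%, so the list's share at 2 weeks was near that of all genes. Without bleomycin library 2 the counts were 12 and 3. Higher after LPS were Ly6c2, a marker of inflammatory monocytes, and Arg1, the arginine-degrading enzyme. Ly6c2 stood at 28.4, 45.4 and 71.5 FPKM after LPS and 5.31, 6.89 and 4.17 FPKM at 2 weeks (2.86 ± 0.31, limma adjusted p = 0.00017). Arg1 stood at 73.6, 97.8 and 65.1 FPKM after LPS and 9.25, 18.8 and 10.1 FPKM at 2 weeks (2.58 ± 0.27, adjusted p = 0.000147). Plac8 differed by 2.51 ± 0.26 and the Fc receptor subunit gene Fcer1g by 2.38 ± 0.28. Higher at 2 weeks was Trem2, a lipid-sensing receptor of tissue macrophages, at 1.73, 4.22 and 1.88 FPKM after LPS and 11.5, 10.04 and 8.12 FPKM at 2 weeks (-1.65 ± 0.27, adjusted p = 0.00187). The lipoprotein gene Apoe stood at 121, 195 and 169.6 FPKM after LPS and 452, 441 and 372 FPKM at 2 weeks (-1.40 ± 0.23, adjusted p = 0.00207) and Gpnmb, a glycoprotein of lipid-laden macrophages, differed by -1.48 ± 0.28. The summed level of the monocyte and interstitial list was 5111 to 7837 FPKM after LPS and 3619 to 5018 at 2 weeks. Of 15 alveolar macrophage markers 8 (53.3%) were higher after LPS and 2 (13.3%) higher at 2 weeks, 4 without LPS library 1 and 6 under equal totals. Their summed level was 954 to 1120.5 FPKM after LPS and 374 to 536 at 2 weeks. Their part in the other results was not tested. Marco, a scavenger receptor for bacteria, stood at 84.6, 109 and 68.04 FPKM after LPS and 3.37, 9.60 and 2.75 FPKM at 2 weeks (3.96 ± 0.36, adjusted p = 6.74e-05). Chil3, a chitinase-like protein of alveolar macrophages, differed by 2.07 ± 0.26 and Krt79 by 3.01 ± 0.22. The mannose receptor gene Mrc1 went the other way, at 9.50, 3.77 and 5.63 FPKM after LPS and 19.6, 26.5 and 17.4 FPKM at 2 weeks (-1.66 ± 0.29, adjusted p = 0.00246), as did Mmp12, macrophage elastase, at 1.27, 0.682 and 0.797 FPKM after LPS and 16.8, 21.1 and 12.8 FPKM at 2 weeks (-3.21 ± 0.23, adjusted p = 1.95e-05).

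Lymphocyte markers differed in both directions. Gzma, a granzyme of killer cells, stood at 110.3, 183 and 167 FPKM after LPS and 38.8, 41.5 and 37.9 FPKM at 2 weeks (1.90 ± 0.22, limma adjusted p = 0.00023), Nkg7 differed by 1.70 ± 0.27, Gzmb by 1.35 ± 0.20 and the natural killer receptor gene Ncr1 by 1.15 ± 0.20. Cd3e, part of the T cell receptor complex, was higher at 2 weeks (-0.80 ± 0.20, adjusted p = 0.0136); it lost the call without bleomycin library 1 (0.0593) or 2 (0.0724) and under median-ratio (0.0589) and quantile (0.0523) scaling. In all 4 of 14 T and natural killer markers (28.6%) were higher after LPS and 2 (14.3%) higher at 2 weeks. The shares of all genes were 9.66% and 23.8%. B and plasma cell markers were higher at 2 weeks for 7 of 10, with 0 higher after LPS, and the count was 2 without LPS library 3 or bleomycin library 2. Jchain, the joining chain of IgA and IgM, stood at 7.94, 3.70 and 8.75 FPKM after LPS and 37.1, 28.2 and 21.1 FPKM at 2 weeks (-1.97 ± 0.30, adjusted p = 0.00128). Its 2-week libraries were near the saline mean of 23.5 FPKM.

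**Figure D4:**
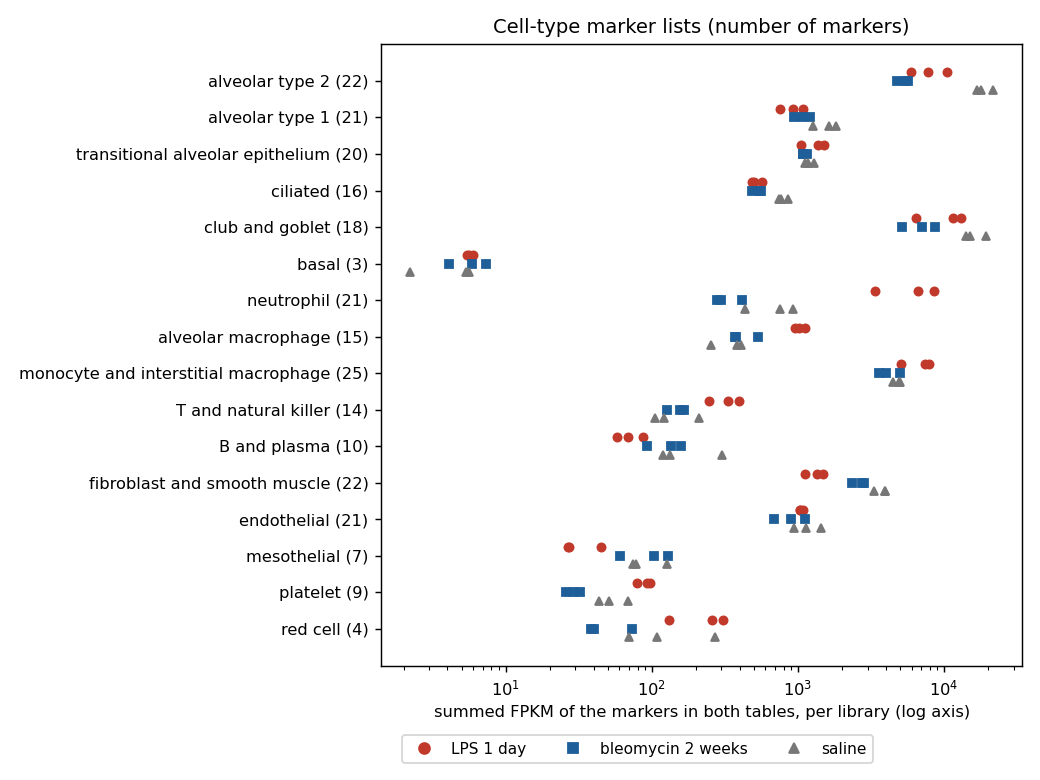
Summed FPKM (log axis) of the markers of 16 cell types in each library, with the number of markers in both tables in brackets; circles are LPS 1 day, squares bleomycin 2 weeks and triangles saline. Neutrophil and platelet sums are highest after LPS and lie apart from the other groups, while fibroblast and mesothelial sums are lowest after LPS.

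Surfactant genes of alveolar type 2 cells did not move together. Sftpc, the surfactant protein C gene (chromosome 14, 70520941 to 70524081), stood at 1774, 4508 and 3262 FPKM after LPS and 3257, 2427 and 3294 FPKM at 2 weeks, with saline at 10854, 14144 and 11008 FPKM. Both injuries were below every saline library, and they overlapped each other (0.001 ± 0.40, limma adjusted p = 0.999). This difference turned to -0.91 with quantile normalization (adjusted p = 0.0474) and to -0.35 under equal totals (adjusted p = 0.296). Sftpd, the lectin surfactant protein D that binds microbes (chromosome 14, 41172212 to 41185198), stood at 1064, 2173 and 1494 FPKM after LPS and 331, 353 and 376 FPKM at 2 weeks, with saline at 667, 881 and 799.8 FPKM. For Sftpd the 2-week libraries were below saline and the LPS libraries above it, and the direct difference was 2.09 ± 0.29 (adjusted p = 0.000809). Sftpa1, the other lectin of surfactant, stood at 945, 1330.5 and 1096 FPKM after LPS and 312, 312 and 332 FPKM at 2 weeks against 1272 ± 165 FPKM in saline (1.80 ± 0.23, adjusted p = 0.000517). Sftpb, needed to spread the surfactant film, stood at 561, 934 and 567 FPKM after LPS and 521, 459 and 550.5 FPKM at 2 weeks and was not called (0.39 ± 0.27, adjusted p = 0.268, and -0.29 under quantile normalization). So the secreted lectin genes differed and the genes of the film-forming proteins B and C did not pass the test.

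Of 22 type 2 markers 7 (31.8%) were higher after LPS and 1 (4.5%) higher at 2 weeks (median 0.32), against 9.66% and 23.8% of all genes. Those higher after LPS numbered 3 without bleomycin library 1 and also under equal totals or quantile normalization, and 4 without bleomycin library 3. Chia1, an acidic chitinase, stood at 52.8, 83.2 and 68.2 FPKM after LPS and 15.6, 15.7 and 20.6 FPKM at 2 weeks (1.90 ± 0.21, limma adjusted p = 0.000203). Hc, which encodes complement C5 and is strongly expressed by type 2 cells, was the member higher at 2 weeks. It stood at 8.79, 4.91 and 5.93 FPKM after LPS and 23.5, 35.95 and 29.9 FPKM at 2 weeks and at 102, 139.98 and 124 FPKM in saline, so its order was LPS, then 2 weeks, then saline, without overlap (-2.04 ± 0.24, adjusted p = 0.000255). The summed level of the type 2 list was 5950.2 to 10440.1 FPKM after LPS, 4759 to 5658 at 2 weeks and 16925 to 21754 in saline. Of 18 transcription factors of lung epithelium 1 was higher after LPS and 2 higher at 2 weeks. These are 5.56% and 11.1% of the list, below the shares of all genes. The balance turned to 4 and 1 under median-ratio scaling, 4 and 2 under quantile normalization and 1 and 0 with a mean of at least 5 FPKM. It was 0 and 5 under equal totals and 2 and 4 without LPS library 1. Nkx2-1, the master factor of lung identity, averaged 18.8 ± 5.53 FPKM after LPS and 23.6 ± 3.63 at 2 weeks (SD, n = 3) against 52.8 ± 9.85 in saline, and was not called (adjusted p = 0.256). Etv5, a factor that maintains type 2 cells, stood at 16.4, 14.3 and 10.6 FPKM after LPS and 13.3, 18.2 and 16.9 FPKM at 2 weeks against 54.9 ± 5.88 in saline (-0.22 ± 0.21, adjusted p = 0.419, and 0.088 with median-ratio scaling). Irx1 was higher after LPS (0.67 ± 0.17, adjusted p = 0.0152), losing its call under equal totals (0.218) and without bleomycin library 1 (0.0678) or 2 (0.0712). Gata6 (-0.69 ± 0.24, adjusted p = 0.0488) lost its call under each scaling except equal totals and with the replicate block (0.067). The call of Gata6 was also lost with a pseudocount of 0.1, with a mean of at least 5 FPKM and without LPS library 2 or 3 or any bleomycin library.

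Markers of type 1 cells were called higher at 2 weeks for 4 of 21 and higher after LPS for 0 (median -0.41). This 19.05% is below the 23.8% of all genes higher at 2 weeks. The balance turned under median-ratio scaling, to 2 higher after LPS and 1 at 2 weeks, and was 0 and 9 under equal totals. Those higher at 2 weeks numbered 11 without LPS library 1, 1 without LPS library 3 and 2 without bleomycin library 2 or 3. Ager, a receptor on the base of type 1 cells, stood at 158, 161 and 176 FPKM after LPS and 123, 114 and 145 FPKM at 2 weeks (0.38 ± 0.18, limma adjusted p = 0.132, and -0.079 under quantile normalization). Hopx stood at 141, 63.2 and 113 FPKM after LPS and 65.6, 88.5 and 91.2 FPKM at 2 weeks (0.31 ± 0.29, adjusted p = 0.419, and -0.042 under equal totals). Neither was called as deposited. Ager was called higher after LPS under median-ratio scaling (0.71, adjusted p = 0.0434), and Hopx without LPS library 2 (0.63, adjusted p = 0.0455). Both injuries averaged below saline (222 FPKM for Ager and 177 for Hopx). Limch1 (-1.15 ± 0.26) and Igfbp2 (-0.99 ± 0.24) were higher at 2 weeks, and both lost their call without LPS library 3 (0.0591 and 0.062), Igfbp2 also with median-ratio scaling (0.0849). Timp3, also a metalloproteinase inhibitor, differed by -0.98 ± 0.25, and its call was lost without bleomycin library 2 (0.0562) or 3 (0.0519) and with median-ratio scaling (0.0907).

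Genes of the transitional state, in which type 2 cells become type 1 cells through a keratin 8-rich form, were divided. Of 20 members 6 (30%) were higher after LPS and 5 (25%) higher at 2 weeks, against 9.66% and 23.8% of all genes. The share at 2 weeks was thus near that of all genes. The division became 2 and 8 under equal totals, 3 and 7 under quantile normalization and 7 and 3 with median-ratio scaling. Leaving out LPS library 2 gave 4 and 8, LPS library 3 gave 2 and 4, and bleomycin library 1, 2 or 3 gave 3 and 4, 2 and 4, and 2 and 3. Mdk, the growth factor midkine (chromosome 2, 91929805 to 91932297), stood at 6.80, 11.1 and 6.38 FPKM after LPS and 37.2, 41.1 and 44.5 FPKM at 2 weeks, and its saline libraries held 13.4, 14.2 and 11.8 FPKM. The LPS libraries were below saline and the 2-week libraries above it (-2.24 ± 0.22, limma adjusted p = 0.000105). Sprr1a, a cornified envelope protein, showed the same order at 2.99, 4.23 and 4.66 FPKM after LPS and 12.3, 13.99 and 15.1 FPKM at 2 weeks (-1.59 ± 0.20, adjusted p = 0.000437). Cldn4, a tight junction protein induced in injured epithelium, stood at 6.42, 10.4 and 8.72 FPKM after LPS and 23.6, 24.1 and 25.2 FPKM at 2 weeks against 24.3 FPKM in saline (-1.43 ± 0.20, adjusted p = 0.000699). Plaur, the urokinase receptor, was higher after LPS, at 90.6, 100.4 and 106 FPKM after LPS and 47.1, 42.8 and 39.9 FPKM at 2 weeks (1.18 ± 0.17, adjusted p = 0.000943). Krt8 stood at 92.2, 128 and 77.6 FPKM after LPS and 121, 117 and 136 FPKM at 2 weeks (-0.35 ± 0.22, adjusted p = 0.217) and its partner Krt18 differed by -0.48 ± 0.23 (adjusted p = 0.124). Neither keratin was called as deposited. Both were called higher at 2 weeks without LPS library 2 (0.0419 and 0.0147), under equal totals (0.0218 and 0.00948) and under quantile normalization (0.0214 and 0.0134). Lgals3, the galectin-3 gene of macrophages and epithelium, was higher after LPS (0.75 ± 0.22, adjusted p = 0.0292). It lost the call under equal totals (0.12) and quantile normalization (0.31), and without LPS library 2 (0.0558) or 3 (0.104) or bleomycin library 1, 2 or 3 (0.0808, 0.0792 and 0.124).

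Airway genes differed in both directions. Tff2, a trefoil peptide of mucus (chromosome 17, 31141049 to 31144282), stood at 33.3, 46.01 and 45.1 FPKM after LPS and 6.84, 6.46 and 6.66 FPKM at 2 weeks with saline at 14.4, 19.95 and 8.83 FPKM (2.46 ± 0.18, limma adjusted p = 2.52e-05). Bpifb1, a secreted bactericidal-family protein, differed by 1.61 ± 0.17. Cyp2f2, the cytochrome P450 of club cells, stood at 104, 79.97 and 64.1 FPKM after LPS and 363, 281 and 323 FPKM at 2 weeks against 697 FPKM in saline (-1.97 ± 0.23, adjusted p = 0.000248). Scgb1a1, the abundant club cell secretoglobin, stood at 4648, 11029 and 9311 FPKM after LPS and 6448, 3386 and 5028 FPKM at 2 weeks. Its groups overlapped and it was not called (adjusted p = 0.252), except without LPS library 1 (0.0161), and its sign turned to -0.13 under quantile normalization. Of 18 club and goblet genes 7 (38.9%) were higher after LPS and 5 (27.8%) higher at 2 weeks. The shares of all genes were 9.66% and 23.8%. The balance turned to 7 and 8 under equal totals. Those higher at 2 weeks were 3 without LPS library 3 or any bleomycin library. Of 16 ciliated cell genes 5 (31.2%, against 23.8% of all genes) were higher at 2 weeks and 0 higher after LPS. Without LPS library 2 the ciliated count was 3, and it was 1 without LPS library 3 and 2 without any bleomycin library. Ak7, an adenylate kinase of cilia, differed by -0.95 ± 0.21. Only 3 basal cell markers were in both tables, and Krt5, Krt14, Krt17 and Ngfr were in the bleomycin table alone.

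Junction and transport genes differed for few members. Cdh1, E-cadherin, stood at 36.02, 21.98 and 24.3 FPKM after LPS and 49.1, 53.1 and 52.8 FPKM at 2 weeks against 68.5 FPKM in saline (-0.92 ± 0.21, limma adjusted p = 0.00905), and lost its call without LPS library 3 (0.0522). Ctnnd1, which stabilises E-cadherin, differed by -0.92 ± 0.28 (adjusted p = 0.0326) and Tjp3, a tight junction scaffold, by 0.89 ± 0.19 in the other direction (adjusted p = 0.00803). The call of Ctnnd1 was lost with median-ratio scaling and without LPS library 2 or 3 or any bleomycin library, and that of Tjp3 under equal totals. In total 5 of 24 junction genes (20.8%, against 23.8% of all genes) were higher at 2 weeks and 1 after LPS. The counts were 12 and 0 under equal totals, and the direction turned with median-ratio scaling (1 and 3), without LPS library 3 (0 and 1) and without bleomycin library 2 (1 and 2). Those higher at 2 weeks numbered 13 without LPS library 1, 1 without LPS library 2, 0 without LPS library 3 and 3, 1 and 1 without bleomycin library 1, 2 and 3. Of 16 ion and water transport genes 4 (25%, against 23.8% of all genes) were higher at 2 weeks and 1 after LPS, a balance that turned to 2 and 3 under median-ratio and quantile scaling. The transport count at 2 weeks was 2 without LPS library 2, 0 without LPS library 3 and 1, 2 and 2 without bleomycin library 1, 2 and 3. Sgk1, a kinase that raises sodium channel activity, stood at 41.6, 20.4 and 30.8 FPKM after LPS and 64.8, 60.5 and 62.98 FPKM at 2 weeks (-1.05 ± 0.24, adjusted p = 0.0101, and 0.0526 without LPS library 3). Aqp1, a water channel of vessels, differed by -0.77 ± 0.22 (adjusted p = 0.0255), and the chloride channel gene Ano1 by -1.16 ± 0.30 (adjusted p = 0.0166). Aqp1 lost its call with median-ratio scaling and without LPS library 2 or 3 or any bleomycin library, and Ano1 under quantile normalization and without LPS library 3 or bleomycin library 1.

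Matrix genes were higher at 2 weeks of bleomycin, and the collagens had the lowest median of the 31 pathway lists. Of 26 collagen and basement membrane genes 22 were higher at 2 weeks and 0 after LPS, with a median of -1.92. The first count stayed between 19 and 26 under all scalings and with any single library left out. Col1a1, the major fibrillar collagen chain (chromosome 11, 94936224 to 94953042), stood at 119, 100.3 and 60.5 FPKM after LPS and 619.8, 545 and 571 FPKM at 2 weeks, with saline at 119.6, 144 and 181 FPKM. LPS libraries were below the lowest saline library, library 1 barely so, and 2-week libraries above the highest (-2.67 ± 0.26, limma adjusted p = 0.000106). Col14a1, a fibril-associated collagen, stood at 6.41, 3.15 and 1.87 FPKM after LPS and 44.4, 38.4 and 37.2 FPKM at 2 weeks (-3.20 ± 0.30, adjusted p = 8.99e-05). Col12a1, Col5a1 and Col15a1 differed by -2.97 ± 0.26, -2.96 ± 0.27 and -2.89 ± 0.20. In each of these 4 genes too, all LPS libraries lay below and all 2-week libraries above the saline libraries.

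Matricellular and fibrosis-associated genes had 21 of 29 members higher at 2 weeks and 3 higher after LPS (median -1.58). Spp1, osteopontin, is made by macrophages and by injured epithelium (chromosome 5, 104435118 to 104441050). It stood at 76.8, 67.3 and 64.4 FPKM after LPS and 1179.7, 1319 and 1221 FPKM at 2 weeks and at 42.04, 38.9 and 37.9 FPKM in saline. The 2-week mean was 17.8 times that of LPS, and both injuries lay above saline (-4.14 ± 0.20, limma adjusted p = 2.31e-06). Tnc, tenascin C, stood at 12.98, 7.35 and 7.01 FPKM after LPS and 105, 109 and 127 FPKM at 2 weeks (-3.55 ± 0.23, adjusted p = 1.41e-05). Cthrc1, a secreted marker of matrix-producing fibroblasts, stood at 0.847, 0.48 and 0.81 FPKM after LPS and 16.6, 33.03 and 25.7 FPKM at 2 weeks with saline at 3.32 ± 0.473 FPKM (-3.88 ± 0.25, adjusted p = 1.41e-05). Ltbp2, an elastic fibre protein of the family that binds latent TGF-beta, differed by -3.97 ± 0.22 and thrombospondin 2 (Thbs2) by -3.31 ± 0.21. Elastin (Eln) stood at 89.2, 91.9 and 39.4 FPKM after LPS and 637, 528 and 649.7 FPKM at 2 weeks (-3.11 ± 0.31, adjusted p = 0.000125) and fibronectin (Fn1) at 82.8, 42.8 and 19.9 FPKM after LPS and 332, 331 and 332 FPKM at 2 weeks (-2.97 ± 0.40, adjusted p = 0.000682). The 3 members in the other direction were Inhba, Igfbp3 and Tgfbi. Inhba, the activin A subunit, stood at 32.3, 38.7 and 49.5 FPKM after LPS and 12.1, 18.7 and 15.7 FPKM at 2 weeks against 1.71 ± 0.784 FPKM in saline (1.32 ± 0.22, adjusted p = 0.00205).

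Metalloproteinases and their inhibitors split, with 11 of 18 higher at 2 weeks and 6 higher after LPS; the first count was 7 with median-ratio scaling or without bleomycin library 2 or 3. Mmp2, the gelatinase of fibroblasts, stood at 58.05, 50.1 and 23.7 FPKM after LPS and 359.96, 251 and 338 FPKM at 2 weeks (-2.90 ± 0.32, limma adjusted p = 0.000183). The neutrophil enzymes went the other way. Mmp9, stored in neutrophil granules, stood at 33.6, 49.5 and 26.005 FPKM after LPS and 4.69, 5.41 and 3.78 FPKM at 2 weeks (2.69 ± 0.24, adjusted p = 6.74e-05), and Mmp8, neutrophil collagenase, differed by 2.15 ± 0.23. Timp1, the inhibitor that blocks many of these enzymes, stood at 707, 1434 and 1060.3 FPKM after LPS and 359, 419.99 and 419.9 FPKM at 2 weeks, with saline at 47.6 ± 7.42 FPKM (1.36 ± 0.29, adjusted p = 0.00739). Timp1 was thus above saline in both injuries and highest after LPS, unlike the collagens.

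Markers of fibroblasts and smooth muscle, some of which the CD90 and PDGFRα antibodies target, were higher at 2 weeks for 18 of 22 and higher after LPS for 0 (median -1.20). Their summed level was 1121 to 1485 FPKM after LPS, 2346 to 2847 at 2 weeks and 3299.9 to 3968 in saline. The order of these sums therefore put saline highest. Single members differed, Mfap4 lying above saline at 2 weeks and Itga8 below the saline mean. The part of these cells in the matrix differences was not tested. Itga8, an integrin of lipofibroblasts and smooth muscle, stood at 13.3, 4.81 and 5.08 FPKM after LPS and 44.9, 42.9 and 48.01 FPKM at 2 weeks against 68.9 FPKM in saline (-2.54 ± 0.31, limma adjusted p = 0.000379). Mfap4, a microfibril protein, stood at 119, 73.5 and 96.5 FPKM after LPS and 418, 294 and 367 FPKM at 2 weeks against 255 FPKM in saline (-1.90 ± 0.24, adjusted p = 0.000401). Npnt differed by -1.98 ± 0.23 and Scube2 by -2.45 ± 0.26. Mesothelial markers were higher at 2 weeks for 5 of 7 and after LPS for 0. That count was 3 without LPS library 2 or bleomycin library 2 and 2 without LPS library 3. Upk1b stood at 9.41, 10.7 and 6.54 FPKM after LPS and 23.9, 35.1 and 34.9 FPKM at 2 weeks (-1.71 ± 0.23, adjusted p = 0.000597) and Upk3b differed by -1.61 ± 0.32. Msln, mesothelin, differed by -1.45 ± 0.33 and lost its call without LPS library 3 (0.0693). Endothelial markers showed no balance, 2 of 21 (9.52%) higher after LPS and 2 (9.52%) higher at 2 weeks. The shares of all genes were 9.66% and 23.8%. Lyve1, the hyaluronan receptor of lymphatic vessels and some macrophages, stood at 122, 115 and 135 FPKM after LPS and 46.9, 30.3 and 37.1 FPKM at 2 weeks (1.70 ± 0.20, adjusted p = 0.000287). Aplnr, the apelin receptor, stood at 1.26, 0.709 and 0.837 FPKM after LPS and 9.19, 7.75 and 9.21 FPKM at 2 weeks (-2.33 ± 0.19, adjusted p = 3.78e-05).

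Genes of mitosis were all higher at 2 weeks, 21 of 21, with 0 higher after LPS and a median of -1.48. Between 18 and 21 were called under the scalings and with any single library left out. Their levels were low. Cdc20, an activator of the anaphase-promoting complex, stood at 1.95, 3.29 and 1.87 FPKM after LPS and 11.7, 14.1 and 13.6 FPKM at 2 weeks with saline at 3.99 ± 0.89 FPKM (-2.09 ± 0.21, limma adjusted p = 0.000133). Ccnb2, a mitotic cyclin, stood at 1.45, 2.91 and 1.42 FPKM after LPS and 10.2, 14.2 and 12.4 FPKM at 2 weeks (-2.21 ± 0.24, adjusted p = 0.000177). Kif20a differed by -2.09 ± 0.16 and Ube2c by -1.99 ± 0.20. Mki67, the gene of the Ki-67 antigen of cycling cells, stood at 4.19, 4.64 and 2.95 FPKM after LPS and 7.55, 8.73 and 7.48 FPKM at 2 weeks with saline at 1.35 ± 0.373 FPKM (-0.87 ± 0.20, adjusted p = 0.0106, and 0.0541 without bleomycin library 2). Both injuries were above saline for Mki67, and 2 weeks was the higher. Ccnb1, Cenpe, Cenpf, Hmmr and Ttk of the mitosis list were in the bleomycin table alone. Of the DNA replication genes 5 of 17 (29.4%, against 23.8% of all genes) were higher at 2 weeks and 0 after LPS, led by Rrm2, a ribonucleotide reductase subunit, at 3.77, 3.17 and 2.19 FPKM after LPS and 7.80, 11.5 and 9.21 FPKM at 2 weeks (-1.38 ± 0.22, adjusted p = 0.00171). The replication count was 8 under equal totals, 3 under median-ratio scaling, 2 under quantile normalization, and 2, 3, 1 and 2 without LPS library 3 or bleomycin library 1, 2 or 3.

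Targets of p53, the transcription factor that DNA damage activates, were higher at 2 weeks for 13 of 24 and higher after LPS for 2 (median -0.70). The first count was 8 with median-ratio scaling or without bleomycin library 2. Ccng1, cyclin G1, stood at 29.3, 11.99 and 22.1 FPKM after LPS and 42.9, 58.6 and 51.2 FPKM at 2 weeks with saline at 21.8 ± 2.58 FPKM (-1.30 ± 0.29, limma adjusted p = 0.00856). Ak1 differed by -1.14 ± 0.21 and Trp53inp1 by -1.72 ± 0.32. Cdkn1a, which encodes the cell cycle inhibitor p21, stood at 201, 203 and 267 FPKM after LPS and 190.4, 161 and 180.1 FPKM at 2 weeks with saline at 138 ± 31.3 FPKM. It was not called (0.32 ± 0.20, adjusted p = 0.225), and its sign turned under equal totals (-0.026) and quantile normalization (-0.21). Fas, a death receptor that NF-kB also induces, was higher after LPS, at 79.005, 64.9 and 88.2 FPKM after LPS and 33.7, 32.3 and 35.8 FPKM at 2 weeks (1.16 ± 0.18, adjusted p = 0.00137).

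Ribosomal protein genes read higher after LPS for 22 of 28, with 0 higher at 2 weeks and a median of 1.01. This depended on processing and on single libraries. The count was 4 under quantile normalization, 14 with the replicate block, 11 and 1 without LPS library 2 or 3, and 6, 2 and 6 without bleomycin library 1, 2 or 3. Rpl32 stood at 549.7, 1011 and 1174 FPKM after LPS and 376, 357 and 385 FPKM at 2 weeks, with LPS library 1 closest to the 2-week libraries (1.22 ± 0.30, limma adjusted p = 0.0139, and 0.0693, 0.0538 and 0.0556 without LPS library 3 or bleomycin library 1 or 2). Ribosomal protein genes have many processed copies, so their levels are uncertain. The same LPS libraries 2 and 3 had the high summed FPKM given above. Rpl32, Rplp1, Rps24 and Rpl37a kept their calls when all libraries were set to equal summed FPKM. Those of Rplp1, Rps24 and Rpl37a were lost under median-ratio scaling (limma adjusted p = 0.0539, 0.057 and 0.0575) and quantile normalization (0.19, 0.286 and 0.318). They were also lost with the replicate block and without LPS library 2 or 3 or any bleomycin library. The cause of the higher readings was not tested. Nuclear genes of oxidative phosphorylation were higher after LPS for 8 of 24 and higher at 2 weeks for 0. That count was 3 under equal totals, 4 under quantile normalization, 13 without LPS library 1, 2 without LPS library 3 and 2, 5 and 3 without bleomycin library 1, 2 or 3. Cox7a2 differed by 1.38 ± 0.28 and Cox5b by 1.28 ± 0.24. Of the 13 mitochondrially encoded genes 0 were called by limma, and 0 had an unadjusted p under 0.05. Their summed level was 8976 FPKM in LPS library 2 against 17608 and 19939 in libraries 1 and 3 and 12557 to 13940 at 2 weeks. Without LPS library 2 the median was 0.52 and 2 were called higher after LPS, and without LPS library 1 there was 1.

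Glycolysis genes were higher after LPS for 7 of 21, with 0 higher at 2 weeks; 3 were called under quantile normalization or without bleomycin library 3, and 4 under equal totals or without bleomycin library 1. Slc16a3, which exports lactate, stood at 26.5, 42.7 and 31.7 FPKM after LPS and 8.94, 9.29 and 7.65 FPKM at 2 weeks (1.83 ± 0.21, limma adjusted p = 0.000222), and Gapdh differed by 1.32 ± 0.18. Of 21 antioxidant genes 9 were higher after LPS and 2 at 2 weeks. The former were 4 under equal totals and without LPS library 3 or any bleomycin library, and the latter 5 without LPS library 1. Slc7a11, the cystine importer, stood at 11.9, 9.24 and 7.65 FPKM after LPS and 1.54, 1.55 and 0.921 FPKM at 2 weeks with saline at 0.7 ± 0.211 FPKM (2.18 ± 0.22, adjusted p = 0.000123). Of 25 genes of the unfolded protein response 3 (12%, against 9.66% of all genes) were higher after LPS, led by Sdf2l1 at 1.22 ± 0.16 and Manf at 1.18 ± 0.19, and 0 higher at 2 weeks; 8 with median-ratio scaling and 6 and 5 without LPS library 1 or 2 were higher after LPS. Of 12 metallothionein and iron genes 4 (33.3%) were higher after LPS and 3 (25%) higher at 2 weeks. The shares of all genes were 9.66% and 23.8%, so the list's share at 2 weeks was near that of all genes. Mt2, a metal-binding protein, stood at 854, 1484 and 1884 FPKM after LPS and 490.2, 302 and 506 FPKM at 2 weeks (1.66 ± 0.35, adjusted p = 0.00644). Slc11a1, the NRAMP1 transporter of phagocytes, differed by 1.95 ± 0.22, and Heph, an iron oxidase, by -1.68 ± 0.21. Fth1, ferritin heavy chain, was the most abundant of the 4 metal genes named, at 4549, 12191 and 8494 FPKM after LPS and 2749, 1583 and 2151 FPKM at 2 weeks (1.88 ± 0.44, adjusted p = 0.0116); the call was lost without LPS library 3 (0.0611) or bleomycin library 2 (0.0669) or 3 (0.0534).

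Lipid synthesis genes were higher at 2 weeks for 7 of 20 (35%) and after LPS for 1 (5%). These shares compare with 23.8% and 9.66% of all genes. The first count was 11 without LPS library 1 and 4 with median-ratio scaling or without LPS library 3 or bleomycin library 2 or 3. Fads2, which desaturates fatty acids, stood at 22.4, 12.9 and 10.8 FPKM after LPS and 52.2, 45.2 and 51.99 FPKM at 2 weeks with saline at 28.2, 33.6 and 38.5 FPKM (-1.70 ± 0.25, limma adjusted p = 0.001). LPS libraries lay below and 2-week libraries above saline. Scd1, the delta-9 desaturase of surfactant lipid synthesis, stood at 126, 66.4 and 89.3 FPKM after LPS and 206, 259.8 and 227 FPKM at 2 weeks against 459 FPKM in saline (-1.33 ± 0.25, adjusted p = 0.00364). Dgat2, which makes triglyceride, went the other way, at 27.4, 41.2 and 25.6 FPKM after LPS and 3.70, 4.73 and 4.03 FPKM at 2 weeks with saline at 4.44 ± 0.518 FPKM (2.62 ± 0.21, adjusted p = 4.11e-05). Of 22 cholesterol synthesis genes 1 (4.5%) was higher after LPS, Fdps (1.13 ± 0.19, adjusted p = 0.00243), and 0 higher at 2 weeks. Both shares are below those of all genes. Those higher after LPS numbered 5 under median-ratio scaling and 3 under quantile normalization. The balance turned to 1 and 3 under equal totals and to 2 and 4 without LPS library 1.

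Clock genes were higher at 2 weeks for 9 of 19 and after LPS for 1 (median -0.47). Nr1d1, the REV-ERB alpha repressor (chromosome 11, 98767932 to 98775333), stood at 8.18, 12.8 and 6.69 FPKM after LPS and 31.9, 26.7 and 41.6 FPKM at 2 weeks with saline at 64.98, 61.6 and 41.6 FPKM (-1.77 ± 0.25, limma adjusted p = 0.000829). Nr1d2 differed by -1.74 ± 0.33 and Dbp by -1.32 ± 0.24. Cry1, a repressor of the clock loop, was higher after LPS, at 12.2, 8.47 and 9.87 FPKM after LPS and 5.24, 5.24 and 4.87 FPKM at 2 weeks (0.86 ± 0.19, adjusted p = 0.00872), and lost its call under equal totals (0.0874). The CACGTG E-box through which CLOCK and ARNTL act was found in 5 of 16 clock genes with a promoter (31.2%), Cry1 among them, against 6.86% of all genes. It was not particular to them, being also in 5 of 20 immediate early genes with a promoter (25%). The sources used here do not give the hour of tissue collection, and hour and treatment cannot be told apart. Immediate early genes, which cell dissociation induces, were higher at 2 weeks for 3 of 24 and after LPS for 0. This 12.5% is below the 23.8% of all genes; the first count was 11 under equal totals, 10 under quantile normalization and 6 without LPS library 1. Egr1 stood at 221, 135 and 192 FPKM after LPS and 283, 187 and 252 FPKM at 2 weeks against 567 FPKM in saline and was not called (-0.40 ± 0.25, adjusted p = 0.224). It was called higher at 2 weeks under equal totals (-0.75, adjusted p = 0.0282) and quantile normalization (-0.90, adjusted p = 0.0316), and Nr4a3 was called at -0.99 ± 0.21 (adjusted p = 0.00699).

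The direct comparison covers genes in both tables. A further 115 genes were in the LPS table alone and 344 in the bleomycin table alone, because a gene had to average 0.5 FPKM in 1 group of its table. These genes have no value in the other injury, where by that rule they averaged under 0.5 FPKM. They entered no test and could not be ranked among the largest differences above. Those with the highest mean in the LPS table alone were Saa2, at 10.4, 10.9 and 11.6 FPKM, and Mrgpra2a, a receptor gene of the Mrgpr family, at 7.85, 12.2 and 12.7 FPKM. They were followed by Stfa1, Ear6, Gm15056, Il27, Stfa2 and Olfr56. In the bleomycin table alone the highest was Thbs4, thrombospondin 4, at 37.3, 42.2 and 35.9 FPKM against 0.245 ± 0.0808 in saline. Grem1, a secreted BMP antagonist, stood at 7.92, 18.4 and 12.02 FPKM, Dkk2, a Wnt antagonist, averaged 5.84 ± 1.37 FPKM, and Frzb, another, averaged 5.57 ± 1.13 FPKM (SD, n = 3). Gm27027 held 76.7 FPKM in bleomycin library 1 and under 1 FPKM in the other two, so its mean rests on that library. Mmp10, Fam64a and Tnfsf18 completed the 8.

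**Figure D5:**
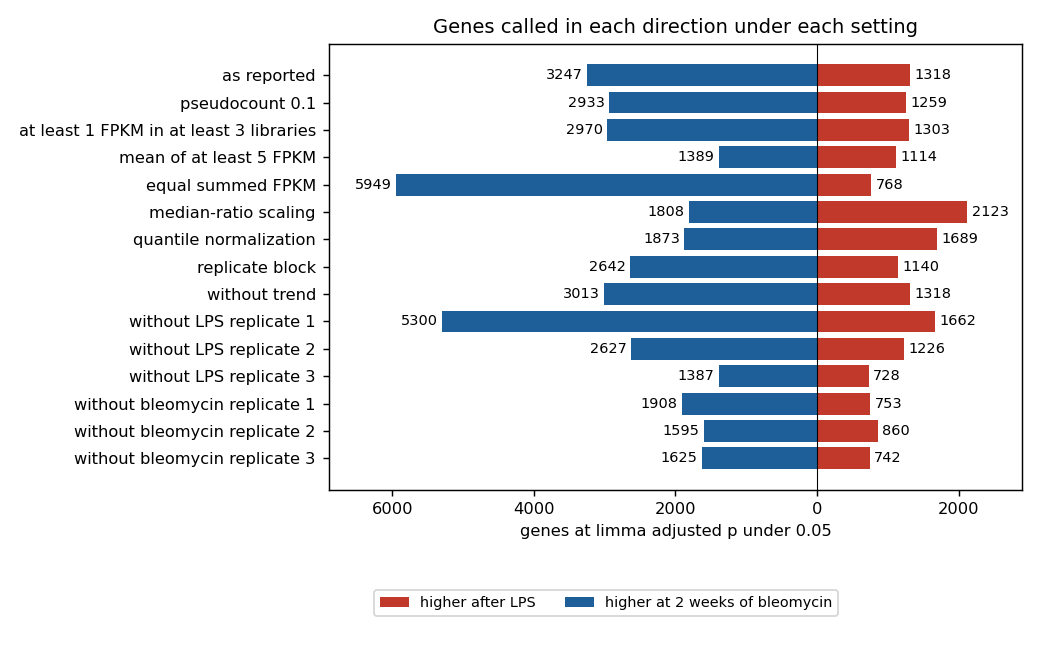
Number of genes called in each direction (bars to the right, higher after LPS; to the left, higher at 2 weeks of bleomycin) as reported and under each of 14 other settings. Genes higher at 2 weeks outnumber the others in every setting but median-ratio scaling, where 2123 were higher after LPS and 1808 at 2 weeks.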

How the data were processed

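The authors deposited FPKM values per library, per the file headers, in tables that each hold 1 treatment and the saline libraries. HISAT2, StringTie and build mm10 are named without versions in the submitters' processing notes. The sources used here name no annotation, strand setting or read total. Each table holds protein-coding genes averaging at least 0.5 FPKM in 1 of its groups, and the saline values were identical in both tables (largest difference 0). Low values were not multiples of 1 read, so FPKM were not turned into counts and no counting interval is given. A high-abundance gene lowers the FPKM of all others in its library, so the scalings were varied.

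The LPS table (13755 genes) and the 2-week table (13984) were joined by gene ID into 13640 genes. Only the 6 libraries of these groups were fitted, by a two-sided moderated test (limma 3.58.1, eBayes trend on, under R 4.3.3) of log2(FPKM + 1) with a pseudocount of 1, no filter and no replicate block, with Benjamini-Hochberg adjustment over all genes. The fit was tested on simulated data. Such differences understate the change of genes near or under 1 FPKM. A gene-by-gene exact permutation test of 3 against 3 libraries cannot go below 0.1. Alternatives were a pseudocount of 0.1, at least 1 FPKM in at least 3 libraries, a mean of at least 5 FPKM, equal summed FPKM, median-ratio and quantile scaling, a replicate block, no trend, and leaving out each library. The labels give no batch.

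The comparison, the gene lists and the named-gene rule were chosen with earlier results of these data known; lists are described by counts and medians, with no test. Named were the 12 largest called differences per direction with at least 10 FPKM in the higher group and no overlap, the 4 largest called members per list of at least 5 FPKM and the largest in the opposite direction, the 3 most abundant genes per group, and 30 fixed genes. Apoe, Gpnmb, Ly6g, Eln, Fn1, Igfbp3, Tgfbi, Nkx2-1, Ifit3 and Cxcl1 were named after their values were seen. Promoters come from a RefSeq table of GRCm38.p6; 27025 genes had 250 bases before the start.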

Additional observations from a re-analysis of the deposited data

Results flagged for a closer look

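For 31 of the named genes all 3 LPS libraries lay on one side of all 3 saline libraries and all 3 bleomycin libraries on the other. Both positions are read against the same saline libraries, so they are not independent; only genes already called between LPS and 2 weeks were looked at, and most had been named for being called, so that the groups differ is set by the choice. The position against saline was not tested. Below saline after LPS and above it at 2 weeks, with log2 differences from LPS to 2 weeks in brackets, were the matrix and matrix-associated genes Fmod (-4.44), Cilp (-4.38), Ltbp2 (-3.97), Cthrc1 (-3.88), Col28a1 (-3.48), Thbs2 (-3.31), Col14a1 (-3.20), Col12a1 (-2.97), Col5a1 (-2.96), Mmp2 (-2.90), Col15a1 (-2.89), Col1a1 (-2.67) and Mfap4 (-1.90). The adhesion gene Nrcam (-3.42), the macrophage gene Fcrls (-3.28), Nrep (-3.26), the growth factor gene Mdk (-2.24), the desaturase gene Fads2 (-1.70), the iron oxidase gene Heph (-1.68) and the envelope gene Sprr1a (-1.59) showed the same order.

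Above saline after LPS and below it at 2 weeks were Il1f9 (4.82), S100a9 (4.63), Krt79 (3.01), Tff2 (2.46), Sftpd (2.09), Traf1 (1.73), Gpx2 (1.30), Txn1 (1.23), Rpl32 (1.22), Tjp3 (0.89) and Cry1 (0.86). Of these, Rpl32 lost its call without LPS library 3 or bleomycin library 1 or 2, and Tjp3 and Cry1 lost theirs under equal totals.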

How the results depend on the processing

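Against 4565 calls (1318 higher after LPS, 3247 at 2 weeks), requiring a mean of at least 5 FPKM gave 2503 with 1389 higher at 2 weeks, among 7452 genes tested. Equal summed FPKM gave 768 higher after LPS and 5949 at 2 weeks, median-ratio scaling 2123 and 1808, and quantile normalization 1873 at 2 weeks. Leaving out 1 library gave 2115 to 6962 calls, 728 to 1662 higher after LPS and 1387 to 5300 at 2 weeks. The replicate numbers do not pair the libraries (correlations of same-numbered deviations -0.09, -0.15 and -0.01), and a replicate block gave 3782 calls (1140 and 2642). Of 205 named genes 190 were called. Of these 151 kept their call under each of the 14 alternatives that tested them, 39 lost it under at least 1, and 0 changed direction. The filter on a mean of at least 5 FPKM left some named genes untested, and these count as keeping their call there. Signs of genes that were not called turned for Scgb1a1 (-0.13), Sftpb (-0.29), Ager (-0.079), Cdkn1a (-0.21) and Sftpc (-0.91) under quantile normalization. They turned for Sftpc (-0.35), Hopx (-0.042), Cdkn1a (-0.026) and Ptprc (-0.013) under equal totals, and for Etv5 (0.088) and Epcam (0.077) with median-ratio scaling. Leaving out 1 library moved Sftpc from -0.30 to 0.37, with -0.30, -0.068 and -0.14 without LPS library 2 or 3 or bleomycin library 2. Balances of lists turned as follows, given as higher after LPS and at 2 weeks. Under equal totals they were 1 and 6 for class II (2 and 1 as reported), 1 and 3 for cholesterol synthesis (1 and 0), 2 and 8 for transitional genes (6 and 5) and 7 and 8 for club and goblet genes (7 and 5). Under median-ratio scaling they were 4 and 1 for epithelial transcription factors (1 and 2), 3 and 1 for junctions (1 and 5), 3 and 2 for ion and water transport (1 and 4) and 2 and 1 for type 1 markers (0 and 4). Quantile normalization gave 2 and 6 for class II, 4 and 2 for transcription factors, 3 and 2 for transport, 3 and 7 for transitional genes and 1 and 0 for basal markers (0 and 1). A mean of at least 5 FPKM gave 1 and 0 for transcription factors. Leaving out 1 library gave 0 to 13 junction genes at 2 weeks, 2 to 6 transitional genes after LPS and 1 to 2 cholesterol genes after LPS. Depth is unknown, which leaves the precision of low values open to the spread between libraries alone. Where no value or construction above shows the cause, the cause was not tested.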
